A study of Mus musculus with 4 samples.

Results

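Among 32439 sorted mammary luminal cells, 164 cells formed cluster 13, which the deposited annotation calls rare, and they were recognised by immune genes, which stood beside luminal transcripts in part of the cells. The members were every cell whose deposited cluster number is 13. They numbered 30 in WT library A, 53 in WT library B, 44 in mutant library A and 37 in mutant library B. Of these cells, 156 held at least 1 transcript of *Cd74*, the invariant chain of MHC class II, 71 held the chemokine gene *Ccl5*, and 34 held *Igkc*, the constant region of the kappa light chain of antibodies. Cells with genes of antigen-presenting myeloid cells made up most of the cluster and cells with B cell genes made up the next largest set. No cell had T cell genes as its leading lineage. The *Ccl5* transcripts lay in cells with *Ccr7* or *Fscn1*, genes that migrating dendritic cells express, although *Ccr7* was also found in cells with B cell genes. Only 1 cell with *Ccl5* held 2 or more T cell UMIs. The values therefore go against reading *Ccl5* as a T cell marker here.

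The mammary gland holds resident leukocytes beside its epithelium. Dendritic cells take up antigen, load it on MHC class II molecules and, once activated, turn on *Ccr7* and travel to the draining lymph node to meet T cells. Macrophages lie along the ducts and clear debris. B cells also present antigen on MHC class II, and each B cell normally makes antibody with either a kappa or a lambda light chain. T cells are marked by the CD3 proteins and the constant chains of their receptor. Before capture, leukocytes were to be removed from these samples by an epithelial enrichment kit and by a sorting gate that leaves out cells with CD45, the protein of *Ptprc*.

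The cells came from the thoracic and abdominal glands of female C57BL/6N mice aged 6 weeks. WT mice were *Erbb3* +/+;MMTV-Cre and mutant mice were *Erbb3* V943R/V943R;MMTV-Cre, so that both genotypes carried MMTV-Cre. The paper describes this driver as specific to mammary epithelium, and whether it acted in leukocytes was not tested. Glands of 3 mice were pooled for each genotype and each pool was run as 2 libraries on the 10x Chromium platform. With 1 pool per genotype no test between genotypes can be made, and the libraries of a pool are lettered here in an order with no meaning. The intervals below are 95% intervals that cover counting error only.

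Transcripts were counted as unique molecular identifiers (UMIs), and a level is given as UMIs of a gene per 1000000 UMIs of the same cells (CPM). A cell of cluster 13 had a median of 1869 UMIs, with a range from 753 to 13630, and a median of 917 genes. The 32199 cells of the luminal clusters 1 to 11 had a median of 3572 UMIs. The *Erbb3* substitution itself is not read by these counts. In cluster 13, *Erbb3* was at 95.1 CPM in WT library A, 36.1 in WT library B, 16.7 in mutant library A and 25.9 in mutant library B, from 19 UMIs in all, against 47.5 CPM in the luminal clusters, and 16 of the 19 UMIs lay in the 41 luminal-rich cells described below. No cell barcode occurred in more than 1 library within cluster 13, and 7 of its cells had a barcode that also occurred in another library. Over the series, 511 of 31923 barcodes were found in more than 1 library.

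The 164 cells were 0.506% of all cells, with an exact interval from 0.431% to 0.589%. The share was 0.312% of the cells of WT library A and 0.588% of WT library B. It was 0.642% in mutant library A and 0.532% in mutant library B. The lowest value was that of WT library A, whereas WT library B lay between the mutant libraries. For the pooled genotypes the shares were 0.445% (0.355 to 0.552) in the WT and 0.587% (0.466 to 0.729) in the mutant, a ratio of 1.32 with an interval from 0.971 to 1.79. Without WT library A the ratio was 0.998 and without WT library B it was 1.88, so the difference between genotypes was no larger than that between the WT libraries. With the 41 luminal-rich cells described below left out, which was decided once the data had been seen, the ratio was 1.46 (1.03 to 2.09). Over the cells outside cluster 11 it was 1.17 (0.864 to 1.59).

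**Figure D1:**
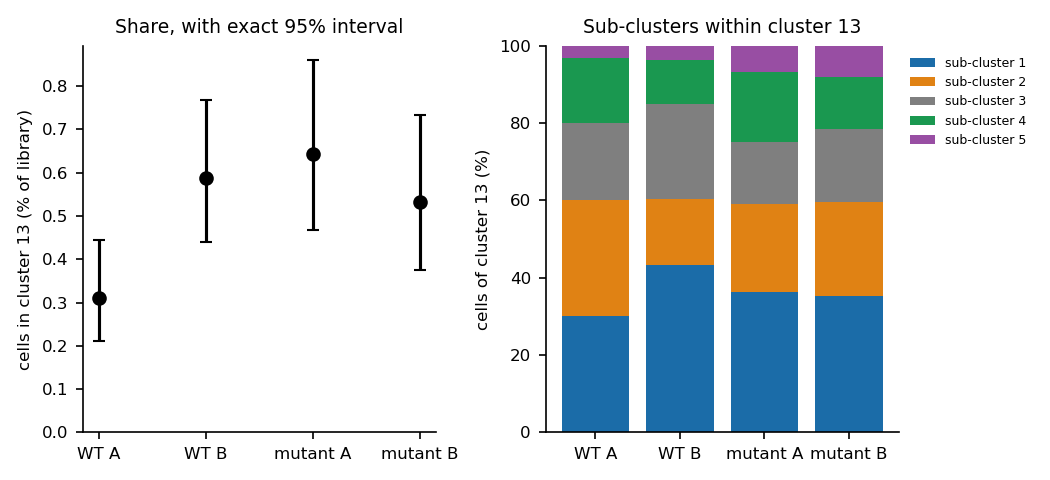
Share of each library's cells that lie in cluster 13, with exact 95% intervals (left, percent), and the makeup of cluster 13 by rebuilt sub-cluster in each library (right, percent of its cells, stacked bars). WT A had the lowest share, 0.312%, and sub-cluster 1 held 9 of its 30 cells, 23 of 53 cells in WT B, 16 of 44 in mutant A and 13 of 37 in mutant B.

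Of 3985 genes with at least 20 UMIs in cluster 13, 314 (7.88%) were at least 4 times higher in CPM than in the luminal clusters pooled. Since clusters were made from the same values, these counts describe the cluster and test nothing, and the minimum of 20 UMIs was met through cluster 13 itself. The median fold over the 3985 genes was 0.938. The 20 genes with the largest folds among those with at least 50 UMIs held the light chain genes *Iglc1*, *Iglc2*, *Iglc3* and *Igkc*, the MHC genes *Cd74*, *H2-Aa* and *H2-M2*, the chemokines *Ccl4* and *Ccl22*, the chemokine receptor *Ccr7*, and *Fscn1*, which bundles actin in dendrites. The rest were *Samsn1*, *Selplg*, *Slamf7*, *Lyz1*, *Gpr183*, *Cd83*, *Mir5107*, *Cd52* and *Lsp1*. A luminal sum under 3 UMIs was taken as 3 for a fold, and the folds of *Ccl4*, *Slamf7* and *Lyz1* lay at that floor. *Lyz1*, a lysozyme, rested on 4 cells, with 44 of its 50 UMIs in 1 cell, and its log2 fold was 12.12 with all libraries and 8.79 without mutant library B. *Lsp1*, a leukocyte actin-binding protein, was found in 151 cells and *Cd83*, a surface marker of mature dendritic cells and activated B cells, in 87.

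The leukocyte identity was broad but *Ptprc* itself was scarce. Of the 16 pan-leukocyte genes, none was at 0, 15 passed the minimum of UMIs and 14 of these were at least 4 times higher, with a median fold of 804 among the 15. Their summed level lay between 4185 CPM in WT library B and 5880 CPM in WT library A, against 108 CPM in the luminal clusters, where *Lcp1* was found in 9.85% of cells and *Cytip* in 15.3%. *Cd52*, a small surface glycoprotein of leukocytes, was found in 149 of 164 cells (90.9%) and in 0.208% of luminal cells. *Ptprc* gave 21 UMIs in 21 cells, namely in none of WT library A, 12 cells of WT library B, 5 of mutant library A and 4 of mutant library B. Whether the gate on CD45 has a part in the low *Ptprc* was not tested.

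MHC class II genes were found in nearly every cell, as 158 of 164 cells (96.3%, 92.2 to 98.6) held at least 2 UMIs of the list against 4.88% of luminal cells. *Cd74* reached 17015 CPM in WT library A, 13096 in WT library B, 17087 in mutant library A and 17971 in mutant library B, and the pooled level was 15740.4 CPM (15396 to 16091) against 4.70 CPM in the luminal clusters. Both mutant libraries were above both WT libraries, by a small step for WT library A, with a log2 difference of 0.31 (0.24 to 0.37). Within each of the 5 sub-clusters described below the genotypes overlapped, as in sub-cluster 2 at 37012 and 51061 CPM for WT and 42769 and 44734 CPM for mutant libraries. *H2-Aa*, the alpha chain of the I-A molecule, gave 4087 and 3267 CPM in the WT libraries and 3601 and 4493 CPM in the mutant libraries. *H2-Ab1*, its beta chain, was found in 102 cells and *H2-Eb1*, the beta chain of I-E, in 118. All of the 10 class II genes had UMIs, 9 passed the minimum and the same 9 were at least 4 times higher, with a median fold of 1816. *Ciita*, the transcriptional coactivator that turns the class II genes on, gave 10 UMIs in 10 cells. The peptide loading genes *H2-DMa* and *H2-DMb1* were also found in 7.85% and 14.6% of luminal cells.

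Most class II genes with a promoter at hand held the letters CCAAT or their reverse complement, which many other promoters also hold. In the upstream module that the class II genes share, a CCAAT box, bound by the factor NF-Y, is the element nearest the start. The stretches below are the 150 bases before the start of *H2-Aa* (chr17:34287824-34287973, minus strand) and of *H2-Eb1* (chr17:34305717-34305866, plus strand) from RefSeq on GRCm38.p6, 5′ to 3′, with each CCAAT or its reverse complement ATTGG in capitals.
H2-Aa: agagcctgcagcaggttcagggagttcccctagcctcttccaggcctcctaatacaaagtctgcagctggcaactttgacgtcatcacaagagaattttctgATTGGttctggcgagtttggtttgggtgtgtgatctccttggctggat
H2-Eb1: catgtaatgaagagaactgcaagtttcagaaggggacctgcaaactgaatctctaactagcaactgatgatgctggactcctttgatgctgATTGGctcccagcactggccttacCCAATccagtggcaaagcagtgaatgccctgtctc
The ATTGG of *H2-Aa* begins 48 bases before the start, and those of *H2-Eb1* begin 59 (ATTGG) and 35 (CCAAT) bases before it. Of the 10 class II genes, 7 had a promoter in the RefSeq table and 6 of these held the letters in this window on either strand. Among all 32851 promoters, which belong to 27025 genes, 24.5% held them, a share of promoters and not of genes. A match is a description of the letters only. The other elements of the shared module were not looked for, so a match does not show that these genes are switched on together.

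T cell genes were nearly absent. *Cd3d*, *Cd3e*, *Trac* and *Cd6* gave 0 UMIs, and 0 of 164 cells allows a share of up to 1.83% of cells with a UMI, taking 3 counts as the limit, or up to 2.22% by the Clopper-Pearson bound. The other 7 of the 11 T cell genes gave 31 UMIs in sum, and none of the 11 reached 20 UMIs. At least 2 UMIs of the list were found in 5 cells (3.05%, 0.997 to 6.97), namely 2 of WT library A, 1 of mutant library A and 2 of mutant library B, against 0.280% of luminal cells. Without *Trbc2*, left out once the data had been seen, the shares were 3.05% and 0.0186%. *Lck*, a kinase of T cells that some B cells also use, gave 11 UMIs in 9 cells, and all 9 were assigned to the B cell lineage by the rule below.

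A single cell carried several T cell genes. It came from mutant library B, with 3391 UMIs, and held 3 UMIs each of *Cd3g*, *Trbc1* and *Trbc2* and 1 each of *Cd5* and *Cd28*, beside 15 UMIs of the myeloid list and 1 of *Ccl5*. It was the sole cell of cluster 13, against 2 luminal cells, with at least 2 of *Cd3d*, *Cd3e*, *Cd3g*, *Trac*, *Trbc1* and *Trbc2*. *Trbc2* alone was no guide, since it was found in 612 luminal cells and 5 cells of cluster 13.

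Genes of T cell subsets and of cytotoxic cells were found in few cells apart from *Ccl5*. Of the 16 subset genes, 8 were at 0, among them *Foxp3* and *Icos*, and none reached 20 UMIs. *Cd8a*, which dendritic cells of the cross-presenting type also express, gave 11 UMIs in 6 cells, all of the myeloid lineage, and 3 of these 6 cells also held *Xcr1* or *Clec9a*. *Cd8b1*, the other chain of CD8, gave 9 UMIs in 4 cells, none with *Xcr1* or *Clec9a* and none with 2 T cell UMIs. *Il7r*, the receptor of interleukin 7, was found in 12 cells and *Cd7* in 11. Of the 15 genes of NK and cytotoxic cells, 11 were at 0, including *Nkg7*, *Gzma*, *Gzmb*, *Prf1* and *Ncr1*, and 3525 of the 3539 UMIs of the list were *Ccl5*. Among the 11 genes of residence and homing, *Itgae*, *Cxcr6* and *Cd160* were at 0, and *Ccr7* and *Itgb7* were among those at least 4 times higher.

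*Ccl5* (chr11:83525778-83530518, minus strand, GRCm38) gave 3525 UMIs in the cluster. Its level was 6396 CPM in WT library A, 9174 in WT library B, 5222 in mutant library A and 5607 in mutant library B, against 5.51 CPM in the luminal clusters. Both mutant libraries were below both WT libraries, with a log2 difference of -0.64 for the pooled genotypes (-0.74 to -0.54), which is under the 2-fold limit used below. Within sub-cluster 1 described below, which held 3100 of the 3525 UMIs, the genotypes overlapped, at 25236 and 35365 CPM for WT and 26709 and 24438 CPM for mutant libraries. The 71 cells with *Ccl5* held a median of 37 UMIs of it and up to 182. *Ccr7* was found in 66 of them, *Fscn1* in 68, and 1 or the other in all 71. Of the 86 cells with *Ccr7*, 76.7% held *Ccl5*, compared with 6.41% of the 78 cells without *Ccr7*. Of the 20 cells with *Ccr7* but no *Ccl5*, 13 were of the B cell lineage. Only 1 cell with *Ccl5* had 2 or more T cell UMIs, which is the cell described above, and 3 had 1.

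**Figure D2:**
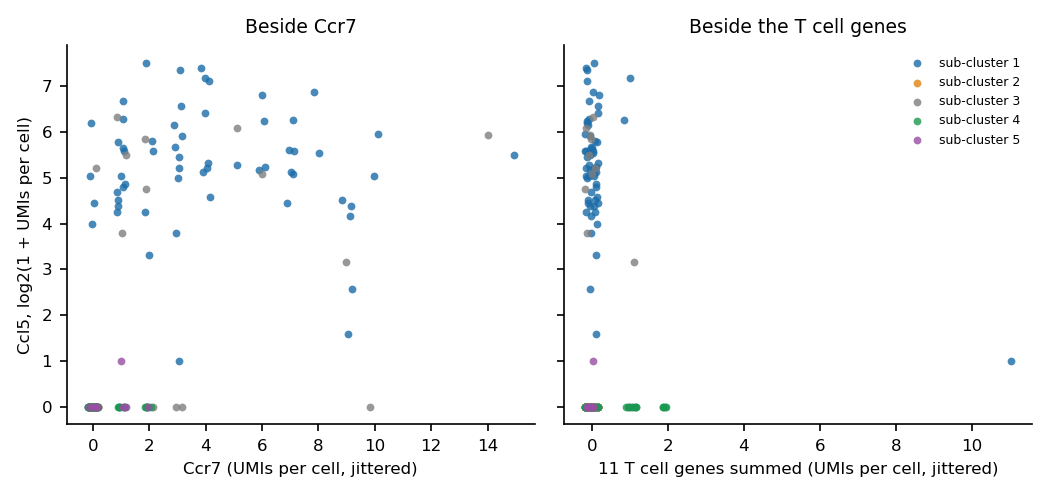
UMIs of *Ccl5* per cell, as log2(1 + UMIs), against UMIs of *Ccr7* (left) and of the 11 T cell genes summed (right), with 1 point for each of the 164 cells, coloured by rebuilt sub-cluster and jittered along the horizontal axis. *Ccl5* was found in 66 of the 86 cells with *Ccr7*, and the 1 cell with 11 T cell UMIs held 1 UMI of *Ccl5*.

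Myeloid genes were found in most cells. At least 2 UMIs of the 14 myeloid genes were found in 141 cells (86.0%, 79.7 to 90.9), against 16.3% of luminal cells. The luminal share was uneven, at 55.1%, 43.6% and 55.5% in clusters 1, 2 and 3 and 0.445% to 5.55% in clusters 4 to 11. After every cell was thinned to 1000 UMIs, which left out 4 cells of the cluster, the shares were 66.2% and 6.27%. *Cd14*, *Csf2ra* and *Cd68* were each found in at least 1% of luminal cells, and without these 3 genes, left out once the data had been seen, 84.1% of the cells of cluster 13 and 0.174% of luminal cells had 2 UMIs. Of the 14 genes, *Csf1r* was at 0, 10 passed the minimum and 8 of these were at least 4 times higher, with a median fold of 758. *Tyrobp*, an adaptor of activating receptors, was found in 101 cells, *Ctss*, the protease cathepsin S that trims the invariant chain, in 102, and *Spi1*, the myeloid transcription factor PU.1, in 77.

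Dendritic cell genes were found in most cells and macrophage genes in few. Of 13 macrophage genes, 9 were at 0, among them *C1qa*, *C1qc*, *Mrc1*, *Cd163*, *Mertk* and *Fcgr1*, and none reached 20 UMIs. *Folr2* made up 13 of the 18 macrophage UMIs and was found in 16.7% of luminal cells. All 16 dendritic cell genes had UMIs, 8 passed the minimum and the same 8 were at least 4 times higher, with a median fold of 2473, and 139 cells (84.8%) held at least 2 UMIs of the list against 644 of the 32199 luminal cells.

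Genes of monocytes and neutrophils were found at 2 or more UMIs in 65 cells (39.6%, 32.1 to 47.6), against 10.2% of luminal cells. Of the 65 cells, 21 lay in the B cell-like sub-cluster 4 described below, 28 in sub-cluster 2, 16 in sub-cluster 3 and 0 in sub-cluster 1. The neutrophil genes *S100a8*, *S100a9*, *Retnlg*, *Cxcr2*, *Ly6g* and *Mmp9* were at 0, and *Ly6c2*, *Ccr2* and *Plac8* were the 3 genes of the monocyte and neutrophil list that were at least 4 times higher. *Plac8* was also found in 26.1% of luminal cells. Of the 9 mast cell and basophil genes, 8 were at 0 and *Hdc* gave 3 UMIs. All 5 erythroid genes were at 0.

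B cell genes were found in fewer cells but at high levels. Of the 18 genes, *Cr2* was at 0, 8 passed the minimum and the same 8 were at least 4 times higher, with a median fold of 2265. At least 2 UMIs were found in 52 cells (31.7%, 24.7 to 39.4) against 0.0559% of luminal cells, and in 22.5% against 0.0157% after thinning. The summed level was 7224 CPM in WT library A, 4973 in WT library B, 7679 in mutant library A and 2678 in mutant library B. *Cd79b*, a signalling chain of the B cell receptor, was found in 34 cells and *Ms4a1*, which encodes CD20, in 11. Of the 9 plasma cell genes, 1 was past 20 UMIs, *Mzb1*, a chaperone of antibody secretion that B cells also use, in 30 cells, whereas *Jchain* was found in 5 cells and *Tnfrsf17* and *Ighg1* were at 0.

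Taking the lists of each cell side by side, 108 cells held at least 2 UMIs of the myeloid list alone, 17 of the B cell list alone, 30 of both, 2 of the T and B cell lists, 3 of all 3 lists and 4 of none. *Ighm*, the heavy chain of IgM, was part of this overlap, since it was found at 1 to 4 UMIs in 18 of the 37 cells of the second sub-cluster described below, where *Cd79a* and *Ms4a1* were at 0. In luminal cells *Ighm* was found in 0.143%.

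Each cell was assigned to the list with the most UMIs, if these were at least 2 and above those of the other lists. Of the 164 cells, 130 (79.3%, 72.3 to 85.2) went to the myeloid lineage, 29 (17.7%, 12.2 to 24.4) to the B cell lineage, 0 to the T cell lineage and 5 to none. The myeloid share was 76.7% in WT library A, 83.0% in WT library B, 75.0% in mutant library A and 81.1% in mutant library B. The B cell lineage held 6 of 30 and 8 of 53 cells of the WT libraries, and 10 of 44 and 5 of 37 cells of the mutant libraries. The genotypes overlapped in both shares, and the pooled B cell share was 16.9% (9.54 to 26.7) in the WT and 18.5% (10.8 to 28.7) in the mutant.

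The genes in no list with the largest fold of B cell lineage cells over the other cells of the cluster were *Vpreb3*, *Cd72*, *Ptprcap*, *Apoe* and *Ltb*. *Cd72*, a B cell coreceptor, was found in 20 of 29 cells inside the lineage and 4 outside, and *Ltb*, a cytokine that shapes lymphoid tissue, in 20 inside and 15 outside. For the myeloid lineage they were *Gadd45b*, found in 76 cells inside and 1 outside, *Retnla*, *Serpinb6b*, *Igsf5* and *Zmynd15*. *Retnla*, a secreted factor of alternatively activated myeloid cells, rested on 3 cells with 177 UMIs. *Igsf5* was also found in 25.7% of luminal cells. In the cluster, 142 of its UMIs lay in 11 cells of sub-cluster 3 described below, and 5 lay in other cells. The luminal-rich cells held 96.6% of its UMIs, and 135 UMIs came from the mutant against 12 from the WT. *Igsf5* was therefore not read as a myeloid gene.

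The cells were clustered again among themselves, which gave 5 sub-clusters of 61, 37, 33, 24 and 9 cells. At lower and higher resolution there were 4 and 8. Each sub-cluster had cells from all 4 libraries. Because the genes that separate them were used to make them, their levels are a description.

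**Figure D3:**
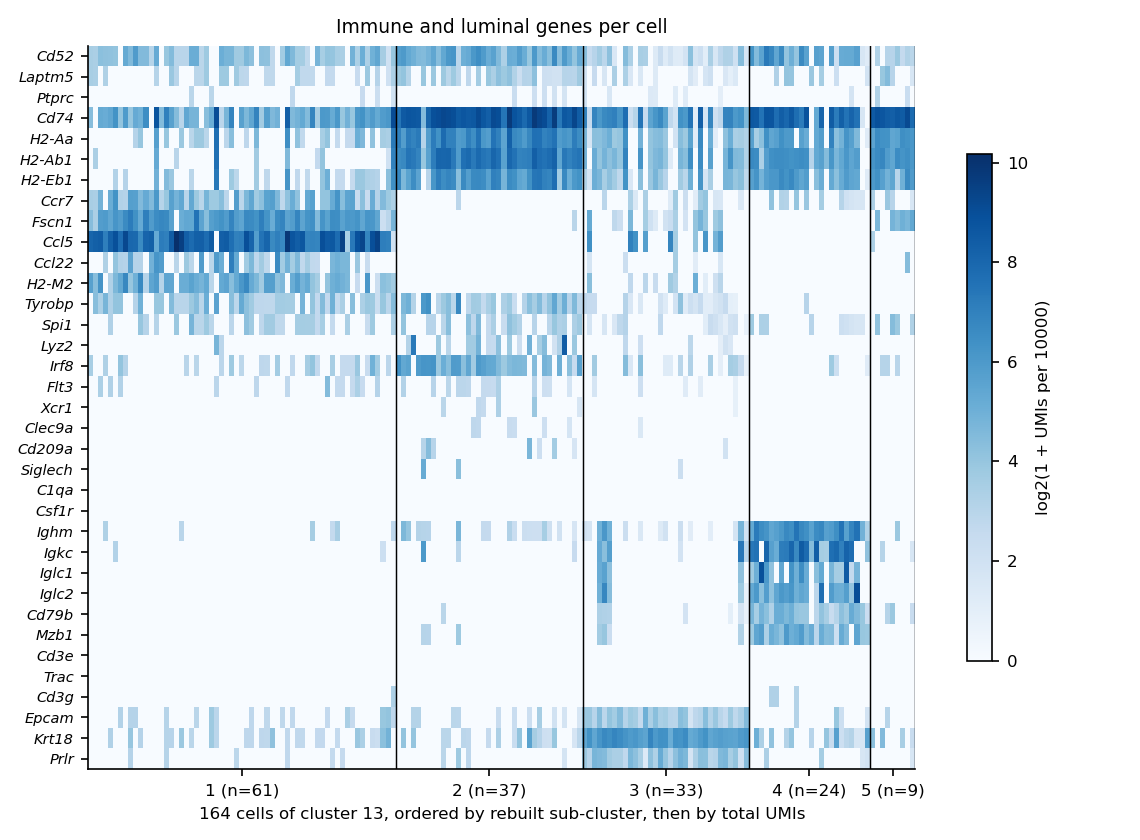
Levels of immune and luminal genes, as log2(1 + UMIs per 10000), in each of the 164 cells (columns), ordered by rebuilt sub-cluster and then by total UMIs. *Ccl5*, *Ccr7* and *Fscn1* mark sub-cluster 1, high MHC class II marks sub-clusters 2 and 5, antibody genes mark sub-cluster 4, and *Epcam*, *Krt18* and *Prlr* stand out in sub-cluster 3 beside immune genes.

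Sub-cluster 1, of 61 cells, was dendritic cell-like and carried the program of migrating cells. *Fscn1* was found in 60 cells with a median of 10 UMIs, *Ccr7* in 57 and *Ccl22*, a chemokine that draws T cells, in 39. *Ccl5* was found in 60 cells and made up 29674 CPM. *H2-M2*, a nonclassical MHC gene, was found in 53, and *Cacnb3* in 47. *Cd74* stood at 7332 CPM, compared with 44219 CPM in sub-cluster 2, and *H2-Aa* was found in 28 cells. It held 9 of 30 and 23 of 53 cells of the WT libraries, and 16 of 44 and 13 of 37 cells of the mutant libraries.

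Sub-cluster 2, of 37 cells, was myeloid cell-like with the highest class II levels, and dendritic cell genes were as widespread in it. At least 2 UMIs of the dendritic cell list were found in all 37 cells and of the myeloid list in 36. The dendritic cell and myeloid lists stood at 4047 and 8296 CPM, compared with 12138 and 3369 CPM in sub-cluster 1. *Cd74* gave a median of 79 UMIs per cell, and *H2-Aa* and *H2-Ab1* were found in all 37 cells. *Irf8*, a transcription factor of dendritic cells, was found in 32 cells, whereas *Ccr7* was found in 1 and *Ccl5* in none. *Lyz2*, lysozyme, was found in 19 of them, at up to 142 UMIs in a cell, and *Ccr2*, the receptor of monocytes and their progeny, in 15.

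Genes of several dendritic subsets were found. *Xcr1* or *Clec9a*, markers of conventional type 1 dendritic cells, were found in 13 cells, and *Cd209a*, *Clec10a* or *Mgl2*, markers of type 2 cells, in 8, with 0 cells in common. *Irf8* had a median of 8 UMIs in the first set, with a range from 2 to 23, and of 1 UMI in the second, where 4 cells had none and the highest had 11. None of the 13 cells held *Ccr7* or *Ccl5*, and their *Cd74* lay between 65 and 244 UMIs. *Siglech*, a marker of plasmacytoid dendritic cells, was found in 3 cells, of which 1 also held *Cd209a*. *Cd207*, which encodes langerin, was found in 5 cells, all in sub-cluster 1.

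Sub-cluster 4, of 24 cells, was B cell-like. *Ighm* was found in all 24 cells with a median of 13 UMIs, *Cd79b* and *Mzb1* in 23 each, *Igkc* in 21 and *Iglc2* in 20. *Ccl5*, *Fscn1* and *Lyz2* were at 0. *Apoe*, which encodes a lipid carrier, was found in 19 of these cells at 5488 CPM, against 151 CPM in the luminal clusters.

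Most cells of the B cell lineage held transcripts of both light chain classes. Of the 29 cells, 26 had *Igkc* (chr6:70726435-70726966, plus strand), 25 had *Iglc1*, *Iglc2* or *Iglc3* on chromosome 16, 23 had both, and 19 had at least 5 UMIs of each. In UMIs from 3′ ends, which do not scale with gene length, *Igkc* was ahead in 21 cells and the lambda genes in 7. The summed UMIs were 899 of *Igkc* and 900 of the lambda genes, and the lambda part was 48.5% in WT library A, 67.0% in WT library B, 29.5% in mutant library A and 59.5% in mutant library B. The genotypes overlapped in this part. A WT library B cell with no *Igkc* UMI had 267 lambda UMIs. How UMIs were shared out among the 3 lambda genes, and free RNA shared between droplets, were not tested. Outside the lineage, *Igkc* was found in 8 cells with at most 9 UMIs.

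**Figure D4:**
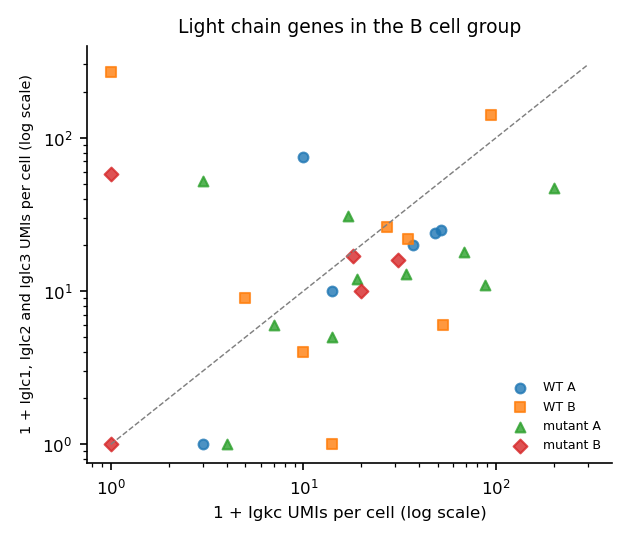
UMIs per cell of *Igkc* (horizontal) and of *Iglc1*, *Iglc2* and *Iglc3* summed (vertical), each plus 1 on a log scale, in the 29 cells of the B cell lineage by library, with the dashed line at equal UMIs. Both classes were found in 23 of the 29 cells and *Igkc* was ahead in 21.

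*Ighm* was found in all 29 cells of the B cell lineage and *Ighd*, the heavy chain of IgD that mature naive B cells add, in 3. *Vpreb3* was found at 4 or more UMIs in 4 cells. All 4 held *Top2a*, a gene of dividing cells, none held a lambda UMI or *Apoe*, and their *Igkc* reached at most 13 UMIs.

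Sub-cluster 3, of 33 cells, held luminal and immune transcripts together. *Epcam*, *Krt8*, *Krt18*, *Krt19* and *Prlr* were found in all 33 cells, as was *Cd74*. The 14 luminal genes took 2.11% of all UMIs in the median cell, with a range from 1.11% to 3.48%, compared with a median of 2.95% and a 1st percentile of 1.32% in luminal cells. In number this was a median of 151 luminal UMIs per cell, against 108 in luminal cells and 3 in the other 131 cells of cluster 13. The leukocyte list gave a median of 13 UMIs per cell in sub-cluster 3, of 11 in the other cells of the cluster and of 0 in luminal cells.

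The cells of sub-cluster 3 were also the deepest, with a median of 7178 UMIs and 2941 genes. All 33 were above the luminal median of 3572 UMIs, as were 9 of the other 131 cells. Of the 33 cells, 28 went to the myeloid and 5 to the B cell lineage, 10 held *Ccl5* and 6 held *Igkc*. No doublet caller was run, and whether 2 cells shared a droplet was not tested. They were 6, 13, 7 and 7 cells of WT A, WT B, mutant A and mutant B.

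**Figure D5:**
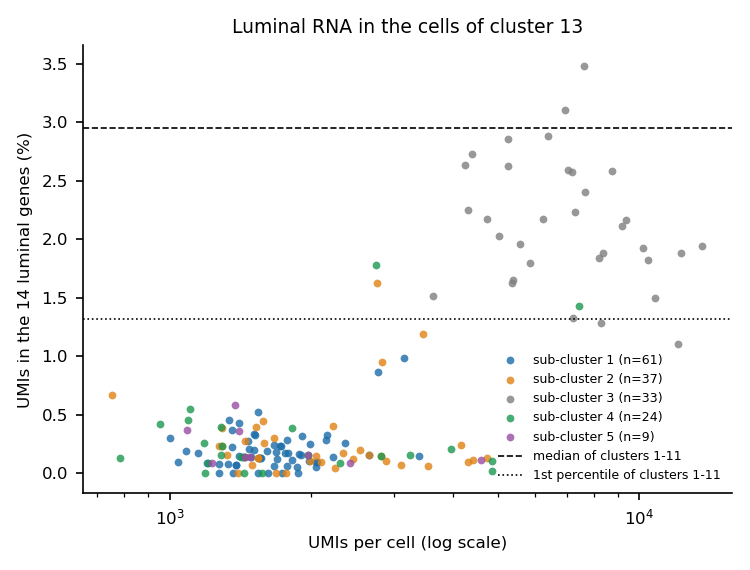
Share of UMIs in the 14 luminal genes (vertical, percent) against UMIs per cell (horizontal, log scale) for the 164 cells, coloured by rebuilt sub-cluster, with the median (dashed, 2.95%) and 1st percentile (dotted, 1.32%) of the luminal clusters. The 33 cells of sub-cluster 3 lie between 1.11% and 3.48% and all have over 3572 UMIs, whereas most other cells lie near 0.

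The 41 cells richest in luminal RNA, which were the top 25% of the cluster and included all 33 of sub-cluster 3, held 93.4% of the luminal UMIs of cluster 13. These cells had at least 0.664% of their UMIs in luminal genes, and the other 123 had at most 0.581%. Among the 123 cells the median was 0.142%, and *Cd74* was found in 94.3% and *Cd52* in 90.2%. Without the luminal-rich cells, 305 genes in place of 314 were at least 4 times higher than in luminal cells, of 1811 tested.

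Sub-cluster 5, of 9 cells, was given no name. Of its cells, 8 were of the myeloid lineage. At least 2 UMIs of the myeloid list were found in all 9, of the dendritic cell list in 7 and of the B cell list in 4. Its leading genes *Gal*, *Atp1b1*, *Rel* and *Ogfrl1*, named after their values were seen, belong to no list. *Cd74* and *H2-Aa* were found in all 9, *Fcer1g* in 8 and *Fscn1* in 6, with *Ccl5* in 1.

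Genes of basal, stromal and pigment cells were scarce. Of the 6 basal epithelial genes, *Krt5*, *Krt14* and *Myh11* were at 0, and of 10 fibroblast and endothelial genes, *Col1a1*, *Col1a2*, *Col3a1*, *Pdgfra*, *Cldn5* and *Kdr* were at 0. Of the 6 genes of pigment cells and glia, 5 were at 0. Luminal genes were not scarce, as 136 cells (82.9%) held at least 2 of their UMIs. Of the 14 luminal genes 11 passed the minimum, none of these was at least 4 times higher, and their median fold was 0.382. Stress genes that dissociation can raise had a median fold of 0.574 among 8 tested, and none was 4 times higher. Of the 7 proliferation genes 5 passed the minimum and none of these was 4 times higher, with a median fold of 1.20, and 26 cells held at least 2 of their UMIs, none of them in sub-cluster 1.

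Chemokines were split between sub-clusters. All 12 had UMIs, and the 8 that passed the minimum were at least 4 times higher, with a median fold of 225. *Ccl4* gave 51 of its 57 UMIs in sub-cluster 2, as did *Ccl9* with 40 of 48, whereas *Ccl22* gave 160 of 179 in sub-cluster 1 and *Cxcl16* 137 of 181. *Ccl3* was found in 2 cells and *Cxcl10* in 4.

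Between genotypes, genes were counted that differed at least 2-fold in pooled CPM, with 20 UMIs or more in the higher genotype and no overlap between the libraries of the genotypes. Of 2439 genes tested, 54 (2.21%) were higher in the mutant and 49 (2.01%) lower. Leaving out a library cannot show whether these counts depend on single libraries. A library left out lowers the UMIs of its genotype, so fewer genes reach 20 UMIs on that side. It also leaves fewer libraries for the rule on overlap. Without WT library B, for example, the WT had 73642 UMIs in the cluster and the mutant 235424. The counting interval lay beyond no difference for 47 of the 54 and 38 of the 49. Of the 12 pan-leukocyte, 8 myeloid and 8 MHC class II genes tested, 0 were called in either direction, too few genes to set apart from the shares over all genes. *Iglc2* of the B cell list and *Ccl22* of the dendritic cell and chemokine lists were lower. Among other lists, the luminal genes *Pgr* and *Fgg* and the stress gene *Hspa1a* were lower.

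Several of the largest differences lay in transcripts that luminal cells also held. The 5 genes with the largest ratios in favour of the mutant were *Dmbt1*, *Igsf5*, *Pcp4*, *Il1b* and *Nrgn*, and the 5 in favour of the WT were *Fgb*, *Apoc1*, *Furin*, *Gadd45a* and *Gm16136*. *Pcp4* was at 136 and 41.2 CPM in the WT libraries and at 568 and 881 CPM in the mutant libraries. *Fgb*, a chain of fibrinogen, was at 109 and 567 CPM in the WT libraries and at 41.8 and 77.8 CPM in the mutant libraries, and 110 of its 132 UMIs came from WT library B. The luminal-rich cells held 95.2% of the *Pcp4* UMIs and 97.0% of those of *Fgb*, compared with 53.7% of all UMIs of the cluster, and in the luminal clusters *Pcp4* was also higher in the mutant, at 1234 against 635 CPM. *Il1b*, an inflammatory cytokine, was near 0 in the luminal clusters, 67.9% of its UMIs lay in 4 of the luminal-rich cells, and 21 of its 25 mutant UMIs came from mutant library A. *Dmbt1* rested on mutant library B, with 63 of its 68 mutant UMIs.

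Without the luminal-rich cells, 12 of the 103 called genes still had 20 UMIs in the higher genotype and 5 of these 12 were called again. In the other 123 cells, 34 genes were higher and 12 lower of 983 tested, and 2 and 3 of these respectively were also called over the whole cluster. *Iglc2* was not called again although its log2 difference was -1.44 over the cluster and -2.01 in the 123 cells. The WT had 373 *Iglc2* UMIs over the cluster and 311 in the 123 cells, against 121 and 83 in the mutant. Among the 123, 1 cell of WT library B held 247 of them, so the direction of the difference rests on that cell. Some ratios stayed large on too few UMIs to be tested, as the log2 difference of *Furin* was -2.36 over the cluster and -2.51 in the 123 cells, that of *Nrgn* 2.63 and 2.12, and that of *Il1b* 3.24 and 2.90. With 1 library left out, the values over the cluster ran from -1.60 to -3.97 for *Furin*, 2.38 to 3.57 for *Nrgn* and 1.62 to 4.36 for *Il1b*. The log2 differences of *Fgb* and *Gadd45a* were -0.10 each in the 123 cells, on too few UMIs to show a level. *Fgb* had 2 WT and 2 mutant UMIs there (-3.89 to 3.69). *Gadd45a* had 3 and 3 (-3.00 to 2.80). The 5 shared genes, named after their values were seen, were *Phf11b* and *Chic2*, both higher, and *Ccl22*, *Cd40* and *Irf1*, all lower. The 123 cells are part of the same data, so a second call is no separate support. The luminal-rich cells held 7.82% of the *Ccl22* UMIs and 9.76% of those of *Cd40*. They held 25% for *Phf11b*, 35.6% for *Irf1* and 51.25% for *Chic2*.

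*Ccl22* was lower in both mutant libraries. It was at 638 CPM in WT library A, 402 in WT library B, 276 in mutant library A and 181 in mutant library B, a log2 difference of -1.03 (-1.51 to -0.55). Within sub-cluster 1 its level was 3102 and 1404 CPM in the WT libraries and 1412 and 923 CPM in the mutant libraries, so that the genotypes overlapped there. *Cd40*, a costimulatory receptor of antigen-presenting cells, was at 163 and 87.6 CPM in the WT libraries and at 50.1 and 51.8 CPM in the mutant libraries, from 41 UMIs. *Irf1*, a transcription factor of the interferon response, was at 177 and 155 CPM against 58.5 and 77.8 CPM, from 59 UMIs. In the luminal clusters *Irf1* was also lower in the mutant, at 86.1 against 112 CPM. The luminal-rich cells held 35.6% of its UMIs in cluster 13. Within sub-cluster 1 neither gene overlapped between genotypes, with *Cd40* at 775 and 272 against 214 and 132 CPM and *Irf1* at 282 and 430 against 214 and 176 CPM. These rest on few UMIs, as *Irf1* had 4 and 19 against 5 and 4 and *Cd40* had 11 and 12 against 5 and 3. *Iglc2* rested on single cells, as 247 of its 494 UMIs came from 1 cell.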

How the data were processed

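Single-cell RNA sequencing (10x Chromium 3′ v2) was performed on sorted luminal cells in 4 libraries, 2 for each genotype pool of 3 mice. The authors' deposited table holds, for 52636 genes and 32439 cells, a normalised signal per cell that sums to between 3516 and 3726, together with their cluster number for each cell. Per the labels, the submitters' processing notes name CASAVA 1.8, bcl2fastq 2.20, GSNAP and GRCm38. The paper gives Partek Flow for clustering. The gene annotation, the cell filters and whether doublets were removed before deposit are not given in the sources used here.

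The smallest signal of each cell was taken as 1 UMI, and all other values were whole multiples of it (100% within 0.02 of a whole number). Library totals were 30019745 to 38009351 UMIs. Library names match no sample label and gave only the genotype. A gene was called higher in cluster 13 at a fold of 4 and 20 UMIs, and different between genotypes at a fold of 2 and 20 UMIs with both libraries beyond. For folds over luminal cells or over other cells of the cluster, a sum under 3 UMIs in the cells compared with was taken as 3. Levels have exact Poisson intervals, shares Clopper-Pearson intervals, log2 ratios exact conditional binomial intervals and the ratio of shares a log-normal interval, all at 95%. No test was run, because each genotype was 1 pool. For comparison across depths, cells were thinned to 1000 UMIs, leaving out 4 cells of cluster 13 and 293 luminal cells. The 164 cells were clustered again with scanpy 1.11.5 and leidenalg 0.10.2 (1000 variable genes, 15 components, 10 neighbours, resolution 0.6), and a sub-cluster was called "like" a cell type only from marker lists. The 21 lists (233 genes) and the members were chosen with earlier results of these data known. Genes named were the members of the lists, the 20 largest folds over luminal cells with 50 UMIs or more, the 5 leading genes of each lineage outside the lists, and the 5 largest ratios between genotypes in each direction. *Erbb3* was added as the mutated gene. Leading genes of sub-cluster 5 and genes called again without the luminal-rich cells were named after their values were seen. Scripts were tested on simulated data. Alternatives were other UMI minimums, thinning, means over cells, other groupings and leaving out each library. Removal of the 41 luminal-rich cells was added after seeing the data for the share, the lineage groups and the counts of genes. No column of the table was left out. Values of some list genes are not reported here.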

Additional observations from a re-analysis of the deposited data

How the results depend on the processing

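Of 83 alternatives for the main comparisons 57 stayed within the limits set for a like value and 26 moved. The ratio of the shares ranged from 0.998 to 1.88 when 1 library was left out. At 1 and 3 UMIs in place of 2, the share of cells with T cell genes was 10.4% and 0.610%, with B cell genes 47.6% and 23.8%, and with myeloid genes 95.7% and 78.0%, and thinning gave 22.5% and 66.2% for the last pair of lists. By sub-cluster the myeloid group was 85.4%. With minimums of 10 and 50 UMIs, 515 of 6503 and 147 of 1619 tested genes were higher in cluster 13, against 314 of 3985. Between genotypes, 226 of 4711 tested genes were higher and 199 lower at a minimum of 10 UMIs, against 54 and 49 of 2439. The counts were 8 and 22 of 389 within the B cell lineage and 34 and 12 of 983 without the 41 luminal-rich cells. By means over cells, 90 of 2439 were lower. Leaving out 1 library gave 20 to 184 higher and 13 to 140 lower, of 1514 to 2109 tested. Beyond fewer cells or another minimum, the cause was not tested. *Pcp4* turned to -0.62 (log2) within the B cell lineage, from 4 and 2 UMIs. Of 100 alternatives for folds over luminal cells, 47 stayed alike, and of 65 for genes between genotypes, 50. Depth limits what a gene at 0 can show. No paired analysis was possible because the libraries carry no number of a label and no result comes from a test.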
